A study of Mus musculus with 5 samples.

Results

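The complement genes described here are C1qa, C1qb, C1qc, C3, C4b, Cfb, C3ar1, and C5ar1, 8 of the 33696 genes in the single-cell matrices of MC38 tumors. They were chosen by name, with no measured value in the rule, and all 8 had counts in both reactions. MC38 is a transplantable mouse colon carcinoma line, so every tumor derived from 1 cell line, grown under the skin of wild-type male C57BL/6J mice aged 8 to 10 weeks. On days 3, 6, and 9, mice were given isotype control antibodies or a pair of checkpoint inhibitors (CPI) against PD-1 and CTLA4, and then the JAK1 inhibitor ABT-317 (20 mg/kg) or its vehicle on day 12, which gave the groups isotype, CPI, isotype + ABT-317, and CPI + ABT-317. The paper's single-cell methods count days from implantation. Its figure legend for MC38 instead counts from enrollment, when tumors had reached a set volume. Tumors were taken on day 15, and live CD45+ and CD45- cells were sorted, mixed 1:1, and run as 2 droplet reactions in which a hashtag antibody on each cell marked its treatment. The key to the hashtags names the treatment of each and no mouse, and a treatment had a different hashtag in each reaction, so whether the 2 reactions held different mice is not known from it. The unit of every comparison below is therefore the sum over the cells of a class with 1 treatment's hashtag in 1 reaction, n = 2 per treatment, and p-values measure only the spread between the 2 reactions, which may be technical.

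Complement is a cascade of plasma and tissue proteins that marks targets for uptake and draws in leukocytes. C1q, assembled from the A, B, and C chains, recognizes immune complexes and dying cells and starts the classical pathway, in which C4 and C2 form a convertase that cleaves C3, while factor B forms the convertase of the alternative pathway. Cleavage of C3 and C5 releases the peptides C3a and C5a, whose receptors, C3aR1 and C5aR1, are carried mainly by myeloid cells. Tissue macrophages are a well-known source of C1q, whereas stromal and epithelial cells make C3 and factor B in inflamed tissue.

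The 3 C1q genes lie side by side on the minus strand of chromosome 4, at 136880129 to 136898803 in the GRCm38 annotation. C3, C4b, and Cfb lie on chromosome 17, C3ar1 on chromosome 6, and C5ar1 on chromosome 7, all on the minus strand. The build is the one the labels name, and the header of these matrices gives none. RefSeq promoter windows on GRCm38.p6 matched C1qb, C1qc, C3, C3ar1, and C5ar1, and there was no entry for C1qa, C4b, or Cfb. The 250 bases before the start are shown for C1qb, the C1q chain with the most counts, and for C3, which moved the other way under CPI, at chr4:136886201-136886450 and chr17:57228137-57228386, minus strand, 5′ to 3′. Capitals in the C3 window mark a match to TTGCNNAA, the core of a C/EBP motif, which starts 45 bases before the C3 start.
C1qb: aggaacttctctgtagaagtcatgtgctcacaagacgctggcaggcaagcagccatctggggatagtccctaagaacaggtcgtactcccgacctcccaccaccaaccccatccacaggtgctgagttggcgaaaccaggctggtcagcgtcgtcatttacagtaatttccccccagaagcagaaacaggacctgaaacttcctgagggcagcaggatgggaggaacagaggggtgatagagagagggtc
C3: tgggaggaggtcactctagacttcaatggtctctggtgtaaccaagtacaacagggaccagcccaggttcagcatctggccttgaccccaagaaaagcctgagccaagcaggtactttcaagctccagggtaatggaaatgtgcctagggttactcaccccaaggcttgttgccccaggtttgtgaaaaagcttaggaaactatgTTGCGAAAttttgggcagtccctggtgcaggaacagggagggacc
Besides TTGCNNAA, the motifs TTCNNNGAA (STAT), GAGGAAG (PU.1), TGANTCA (AP-1), and the core of the interferon-stimulated response element (GAAA repeated after 2 free bases) were searched on both strands. TTCNNNGAA, the interferon-stimulated element, GAGGAAG, TTGCNNAA, and TGANTCA occur in 7.02%, 2.98%, 10.6%, 9.56%, and 6.75% of 32851 promoter windows of the same length. The C1qb and C5ar1 windows held no match. The C1qc window held the reverse complement of GAGGAAG, 194 bases before the start, and the C3ar1 window held TGACTCA, 22 bases before the start. A match describes letters and is not a measured binding site.

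Reactions 1 and 2 held 37774 and 27582 barcodes with 435031691 and 377184807 gene UMIs (unique molecular identifiers, each marking 1 captured RNA molecule), with medians of 6785 and 7079 UMIs. Barcodes with at least 200 genes and under 10% mitochondrial UMIs numbered 33762 and 23332. Of these, 18139 and 14926 carried exactly 1 treatment hashtag and were used, and 388 barcode sequences were shared between the reactions among the cells used. The treatments stood apart before any gene was compared. The median UMI count per cell was 2829 and 3256 under CPI, 5450 and 7621 under isotype, and 16756 to 24066 in the ABT-317 groups, and only the CPI cells held many fibroblast-like cells (42.3% and 45.0%, against 0.578% to 1.61% elsewhere). Macrophage-like cells made up 45.6% and 46.8% of isotype cells and 8.94% to 19.1% of cells in the other groups. The CPI hashtag was called on 13.5% and 11.0% of barcodes, fewer than the other 3 hashtags in each reaction. T-like cells were 15.9% and 15.8% of CPI cells and at most 0.391% of cells elsewhere. The part of hashtag calling, depth, and cell makeup in the results below was not tested beyond the alternatives given.

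Clusters were named from marker lists that hold no complement gene, and complement genes were left out of the clustering. Macrophage-like cells (10590 cells with 1 hashtag) were led by Lyz2, Apoe, and Trem2 and held 10 of 10 macrophage markers above the other clusters. Fibroblast-like cells numbered 1703, T-like cells 575, and pericyte-like cells 287, while DC-like cells (158) and neutrophil-like cells (54) were sub-clusters. The other 7 clusters stayed unnamed, and no cluster met the rule for epithelial tumor cells, endothelial cells, or monocytes.

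C1q RNA was found mainly in macrophages. The macrophage-like cells were 32.0% of the cells used and held 83.4% of all C1qa, 82.7% of C1qb, and 82.4% of C1qc UMIs. Per 1000000 gene UMIs of the class (CPM), C1qa stood at 3380 in reaction 1 and 4483 in reaction 2. C1qb stood at 4484 and 5811 CPM, and C1qc at 3105 and 3977 CPM. In each other named class both reactions lay below both macrophage values, at most 574 CPM for C1qa (DC-like), 767 for C1qb (DC-like), and 568 for C1qc (neutrophil-like). After thinning each cell to 1000 UMIs, a C1qb UMI was found in 93.5% and 95.6% of macrophage-like cells (97.8% and 97.7% without thinning), and in 29.7% and 20.8% of T-like cells, which should lack the gene. Median depth was 3282 and 3825 UMIs in macrophage-like and 1234 and 1154 UMIs in T-like cells, and a share near the T-like one was read as background. The order below macrophages was mostly unresolved, since the reactions of neighboring classes overlapped except for C1qb in pericyte-like above fibroblast-like cells (432 and 381 against 292 and 338 CPM) and C1qc in fibroblast-like above T-like cells (191 and 244 against 175 and 113 CPM). Both exceptions are over all treatments together. By treatment, C1qb was at 68.4 to 1242 CPM in fibroblast-like and 127 to 818 CPM in pericyte-like sums. C1qc was at 53.0 to 885 CPM in fibroblast-like and 101 to 183 CPM in T-like sums, so both orders overlapped by treatment.

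The chain shares were close in macrophage-like, fibroblast-like, and T-like cells over all treatments. Of all C1q UMIs, C1qa, C1qb, and C1qc made up 30.8%, 40.9%, and 28.3% in macrophage-like cells of reaction 1 and 31.4%, 40.7%, and 27.9% in reaction 2. Fibroblast-like cells, where C1q was at 191 to 338 CPM, held 30.7%, 42.0%, and 27.4% in reaction 1 and 31.5%, 39.8%, and 28.8% in reaction 2. T-like cells held 31.9%, 44.1%, and 24.0%, then 27.8%, 42.1%, and 30.2%. They were less alike in classes with few C1q UMIs, such as DC-like cells in reaction 2 (36.1%, 45.0%, and 18.9% of 249 UMIs) and neutrophil-like cells in reaction 1 (17.2%, 44.8%, and 37.9% of 58 UMIs), and under CPI, as given below. Whether the C1q UMIs outside macrophages were free RNA was not tested.

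C3, the central component that every pathway cleaves, and C4b, a C4 gene of the classical pathway, were highest in fibroblast-like cells. These cells were 5.15% of those used and held 81.6% of C3 and 89.0% of C4b UMIs. Most of them, 1347 of 1703, were CPI cells, and without the CPI cells fibroblast-like cells were 1.19% of cells and held 43.3% of C3 and 59.8% of C4b UMIs, against 25.1% and 16.1% in macrophage-like cells. With the CPI cells included, C3 was at 1137 and 1303 CPM in fibroblast-like cells and at 34.9 and 32.5 CPM in macrophage-like cells. T-like cells had C3 at 17.4 and 2.96 CPM. By treatment, C3 was at 355 to 1779 CPM in fibroblast-like and 20.2 to 246 CPM in macrophage-like sums of at least 30 cells. The mean level of C3 in fibroblast-like cells, 1220 CPM, was 1939.8 CPM when cells with 2500 genes or more were left out. Neutrophil-like cells came next at 181 and 400 CPM, from 7 UMIs in each reaction. C4b was at 521 and 591 CPM in fibroblast-like cells and at 13.7 and 10.7 CPM in pericyte-like cells, the next class, so both reactions of the fibroblast-like class stood apart. By treatment, C4b was at 170 to 790 CPM in fibroblast-like sums of at least 30 cells. After thinning, a C3 UMI was found in 61.0% and 66.0% of fibroblast-like cells, 3.92% and 3.45% of macrophage-like cells, and 0.733% of T-like cells in reaction 1 and 0 of 144 in reaction 2.

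Cfb, the factor B gene, was found mainly in fibroblast-like and macrophage-like cells. Fibroblast-like cells held 44.7% of its UMIs at 190 and 227 CPM, and macrophage-like cells held 34.4% at 40.0 and 41.5 CPM. Without the CPI cells these shares were 15.3% and 52.7%. By treatment, Cfb was at 71.3 to 290 CPM in fibroblast-like and 30.8 to 105 CPM in macrophage-like sums, which overlapped. An unnamed cluster led by H19 and Ccl2 held 9.25% of Cfb UMIs at 2.62 and 3.57 CPM. Without the CPI cells its share was 14.8%, and it made up 25.7% of the cells. Pericyte-like cells were at 23.9 and 12.1 CPM. C4 has a close paralog in mouse, and the assignment of reads between C4b and C4a by the authors' counting is uncertain.

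Among the named classes, the receptor genes were highest in macrophage-like or neutrophil-like cells. C3ar1 was at 206 and 229 CPM in macrophage-like cells, which held 78.7% of its UMIs, against 56.0 and 10.1 CPM in DC-like cells and 23.1 and 14.8 CPM in T-like cells. An unnamed cluster of low depth led by Lrmda and Cadm1 had C3ar1 at 250.1 and 215 CPM, which overlapped the macrophage-like values. The DC-like and T-like values of C3ar1 overlapped, and neutrophil-like cells had 0 C3ar1 UMIs, which allows up to 77.5 and 171 CPM at their depth. C5ar1 was at 223 and 285 CPM in macrophage-like cells, which held 80.9% of its UMIs, and at 207 and 629 CPM in neutrophil-like cells, from 8 and 11 UMIs. The macrophage-like and neutrophil-like values of C5ar1 overlapped, and both classes stood above the pericyte-like cells at 25.6 and 25.5 CPM. In DC-like cells C5ar1 was lower still, at 21.0 and 13.5 CPM, from 6 and 4 UMIs. The antibody panel also measured CD88, the C5aR1 protein. Per 10000 antibody UMIs, CD88 was at 131 and 132 in macrophage-like cells, 122 and 128 in neutrophil-like cells, 114 and 115 in T-like cells, and 104 and 101 in fibroblast-like cells. The spread between classes was thus small beside that of CD11b, the complement receptor chain encoded by Itgam, which was at 190 and 210 in macrophage-like and 45.0 and 43.8 in fibroblast-like cells, and the 9 control antibodies lay between 9.88 and 34.9 in macrophage-like cells.

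**Figure D1:**
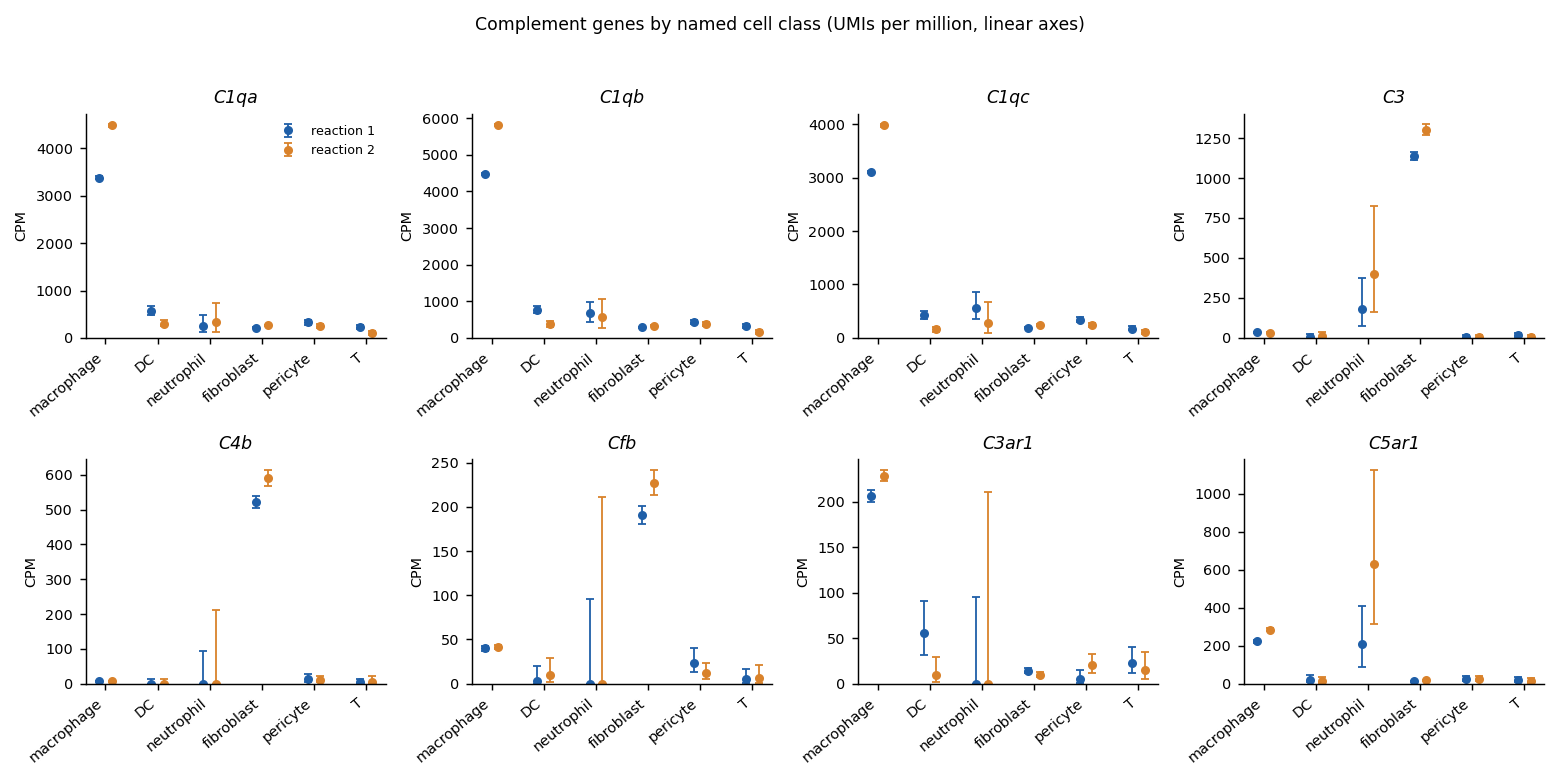
CPM of each complement gene (linear axes from 0) in the named cell classes, all treatments together, with 1 point per reaction and bars for the exact Poisson 95% interval, which covers counting error only. C1qa, C1qb, C1qc, and C3ar1 were highest in macrophage-like cells, C3, C4b, and Cfb in fibroblast-like cells, and the macrophage-like and neutrophil-like values of C5ar1 overlapped.

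The genes most like each complement gene across classes were found by Pearson's correlation of log2(CPM + 1) over 12 sums, 6 named classes in 2 reactions that share depth and hashtag calls, as a description. For C1qa they were Tgfbi (0.96), Adam17 (0.96), and Apobec1 (0.95), for C1qb Tgfbi (0.96), Apobec1 (0.95), and Lyz2 (0.95), and for C1qc Ccl12 (0.96), Cx3cr1 (0.95), and Apoe (0.94). C3 was most like Gxylt2 (0.93), Thbs4 (0.88), and Gm56730 (0.87), C4b like Dnm1 (0.98), Col6a5 (0.97), and Apod (0.97), and Cfb like Esr1 (0.96), Tpst1 (0.93), and Col14a1 (0.93). C3ar1 was most like Ch25h (0.94), Slc37a2 (0.93), and Mrc1 (0.93), and C5ar1 like Pla2g7 (0.98), Cd14 (0.97), and Ehd1 (0.97). Thbs4 was at only 20.2 and 22.0 CPM in fibroblast-like cells, so it reached the minimum of 50 CPM in another class. The neutrophil-like values of C3 in this ranking rest on 7 UMIs in each reaction.

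Complement genes beyond the 8 were counted by list where they reached 10 CPM in both reactions of a class, and called apart in a class where both its values lay above those of every other named class. Of all 10508 genes at that level, 8.41% stood apart in fibroblast-like, 12.3% in pericyte-like, 4.72% in DC-like, and 3.60% in macrophage-like cells, and 53.4% overlapped. Of 15 other genes of the classical and lectin pathways, 4 reached that level and all 4 stood apart in fibroblast-like cells, the C1 protease genes C1s1 (419 and 476 CPM) and C1ra (221 and 260 CPM), C2 (67.7 and 85.5 CPM), and the collectin gene Colec12 (68.0 and 71.0 CPM). Of 9 other alternative and terminal pathway genes, C7 stood apart in fibroblast-like cells (22.4 and 27.2 CPM) and the properdin gene Cfp in DC-like cells (312 and 279 CPM, against 122 and 157 CPM in macrophage-like cells). Of 7 other receptor genes, Itgam stood apart in macrophage-like cells (295 and 309 CPM), Itgax in DC-like cells (126 and 199 CPM), and Cd93 in pericyte-like cells (254 and 223 CPM), while Itgb2 overlapped between classes. Of 13 regulators, 8 reached that level, of which 4 stood apart in pericyte-like cells, 2 in fibroblast-like cells, and 2 overlapped. The paper lists endothelial cells among the cells of these tumors, but no endothelial class was named here. Whether the pericyte-like cluster held endothelial cells was not tested. Serping1, encoding the C1 inhibitor, reached 1507 and 1833 CPM in fibroblast-like cells. The fibroblast-like levels in this paragraph include the CPI cells, which were most of that class.

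CPI was set against isotype in macrophage-like cells to ask how complement expression in these cells followed checkpoint blockade. C3 rose, the 3 C1q genes fell, and the receptor genes did not pass the test. Of the 8 genes, 6 were called, where 16.8% of the 9690 genes tested were called (974 higher and 657 lower). The median log2 fold change was -0.07 over the 8 genes and 0.03 over all genes tested.

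C1qa was at 3512 and 4578 CPM under isotype and at 1463 and 1637 CPM under CPI. C1qc was at 3204 and 4044 CPM under isotype and at 1298 and 1496 CPM under CPI, and C1qb at 4649 and 5915 against 2367 and 3044 CPM. For each chain both CPI values lay below both isotype values. The log2 fold changes were -1.40 ± 0.25 for C1qa (SE, n = 2 sums per treatment, adjusted p = 0.0026 by edgeR's quasi-likelihood test with Benjamini-Hochberg adjustment, as for all adjusted p-values below), -1.39 ± 0.23 for C1qc (adjusted p = 0.0019), and -0.97 ± 0.25 for C1qb (adjusted p = 0.020). C1qb thus took a larger part of the C1q UMIs in CPI macrophage-like cells, 46.2% and 49.3%, than under isotype, 40.9% and 40.7%, or CPI + ABT-317, 40.9% and 39.9%, a description with no test.

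C3 was at 25.3 and 23.8 CPM under isotype and at 190 and 246 CPM under CPI. The groups did not overlap, and the log2 fold change was 3.13 ± 0.22 (adjusted p = 7.63e-06). The share of cells thinned to 1000 UMIs that held a C3 UMI was 2.40% and 2.55% under isotype and 17.5% and 17.1% under CPI (7.80% and 8.09%, then 28.8% and 29.5%, without thinning). T-like cells of CPI tumors, which should lack C3, were at 17.6 and 3.87 CPM.

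C4b was at 6.44 and 6.06 CPM under isotype and at 16.8 and 21.8 CPM under CPI, the latter from 13 and 11 UMIs. T-like cells over all treatments had C4b at 3.86 and 5.93 CPM, from 2 UMIs in each reaction, so the isotype level was near background. The C4b log2 fold change was 1.58 ± 0.38 (adjusted p = 0.015). Cfb was at 36.1 and 37.3 CPM under isotype and at 49.2 and 105 CPM under CPI, with a wide gap between the CPI reactions. Its log2 fold change was 0.99 ± 0.28 (adjusted p = 0.032).

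C3ar1 was at 208 and 230 CPM under isotype and 224 and 206 CPM under CPI, and C5ar1 at 216 and 277 against 218 and 248 CPM. The groups overlapped for both receptors, with log2 fold changes of -0.04 ± 0.18 (adjusted p = 0.93) and -0.10 ± 0.24 (adjusted p = 0.82). CD88 protein was at 132 and 133 per 10000 antibody UMIs under isotype and at 125 and 127 under CPI.

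The calls of C3, C1qa, and C1qc held in all 16 alternatives that were run. C1qb was lost without CPI reaction 1 (log2 fold change -0.76, adjusted p = 0.149) and without isotype reaction 2 (-0.78, adjusted p = 0.115), C4b without any 1 of the 4 sums compared (1.29 to 1.84, adjusted p = 0.052 to 0.129), and Cfb without CPI reaction 2 (0.29, adjusted p = 0.49), isotype reaction 1 (0.93, adjusted p = 0.092), or isotype reaction 2 (1.03, adjusted p = 0.085). Over all alternatives C1qb was called in 13 of 16, Cfb in 9 of 16, and C4b in 8 of 15, since C4b was not tested when cells with a UMI of 4 fibroblast genes were left out.

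**Figure D2:**
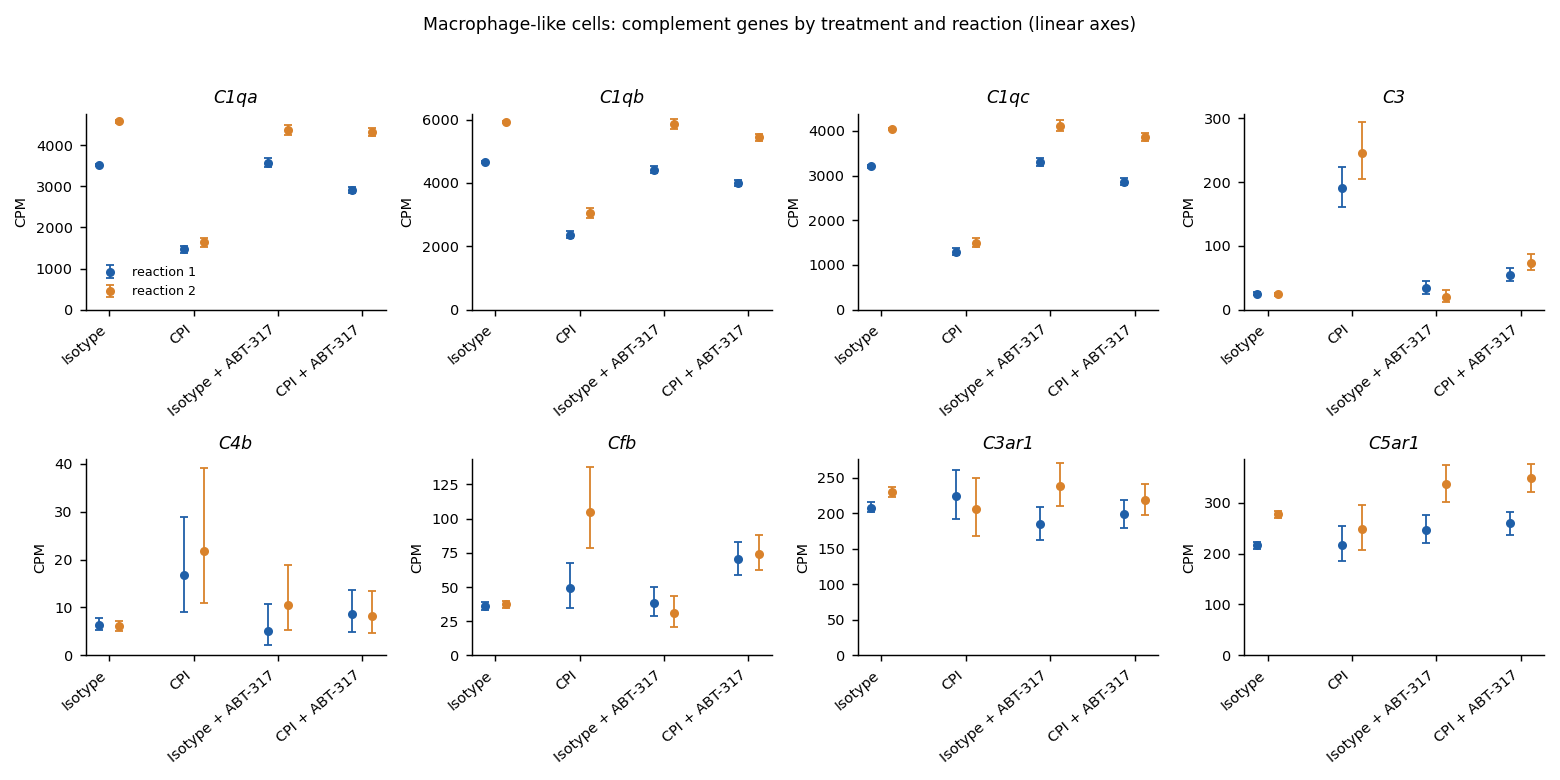
CPM of each complement gene in macrophage-like cells by treatment, with 1 point per reaction, linear axes from 0, and bars for the exact Poisson 95% interval. C3 under CPI sits at 190 and 246 CPM above every other group, and the 3 C1q genes under CPI sit below every other group.

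The makeup of the macrophage-like class moved with these results. Its fibroblast RNA was higher under CPI than under isotype within each reaction, although the values of the groups overlapped across reactions. The summed fibroblast marker list was at 561 and 343 CPM in isotype and 1070 and 387 CPM in CPI macrophage-like cells, the monocyte list at 170 and 160 against 556 and 679 CPM, and the T cell list at 20.4 and 22.9 against 60.9 and 77.4 CPM. The macrophage list differed less, 13869 and 15933 CPM under isotype and 13130 and 15583 CPM under CPI. C3 came to 178 and 636 UMIs per 1000 fibroblast-list UMIs in CPI macrophage-like cells, against 20.9 to 22.7 in the fibroblast-like cells of isotype and CPI tumors. In macrophage-like cells of the other groups this ratio also lay above the fibroblast-like one. It was 45.1 and 69.4 under isotype, 60.1 and 107 under isotype + ABT-317, and 76.6 and 245 under CPI + ABT-317. When cells with a UMI of Col1a1, Col1a2, Col3a1, or Dcn were left out, the C3 log2 fold change was 3.15 and stayed called, whereas that of Cfb was 0.72 (adjusted p = 0.14). C1qa was at 253 and 287 UMIs per 1000 macrophage-list UMIs under isotype and at 111 and 105 under CPI.

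Within the macrophage-like class, 1 sub-cluster was made up mostly of CPI cells. It held 397 cells with 1 hashtag, of which 380 were CPI cells, and 70.3% and 73.7% of CPI macrophage-like cells, and it was led by Lyz1, Ccl8, Mmp19, Gdf15, and Saa3. Its C1qa level was 1730 CPM, C1qb 3089 CPM, and C1qc 1501 CPM, and its C3 level 211 CPM, C4b 24.4 CPM, and Cfb 82.4 CPM. C3ar1 was at 243 CPM and C5ar1 at 234 CPM there. A sub-cluster led by Cxcl9 and H2-DMb1 had the highest C1qa, C1qb, and C1qc (4895, 6172, and 4351 CPM) with C3 at 31.2 CPM, and one led by Tnfsf9, Cxcl1, and Ccl7 had C1qa at 4005 CPM, C3ar1 at 232 CPM, and C5ar1 at 336 CPM. One led by Hspb1 and Hmox1 had C1qa at 2823 CPM and C3 at 15.6 CPM. A sub-cluster led by Cadm1 and Negr1, with a median of 1875 UMIs, had C3ar1 at 447 CPM and C1qa at 2214 CPM, but only 18.1% of its cells came from the macrophage-like cluster, the others from an unnamed cluster that was sub-clustered with it. At Leiden resolution 1.0, a cluster led by Lyz1, Ccl22, and Ccr7 was named DC-like and held 441 CPI cells. The macrophage-like clusters at that resolution held 45 and 70 CPI cells.

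The CPI cells outside this sub-cluster, and outside the DC-like, neutrophil-like, and fibroblast-marker sub-clusters, numbered 76 and 52. Their C3 was at 212 and 274 CPM and their C1qa at 1628 and 1887 CPM, close to the levels inside it. Their Cfb was at 36.3 and 47.0 CPM, and C4b had 0 UMIs and 1 UMI. A fit without the CPI sub-cluster, as it is called below, also left out the DC-like, neutrophil-like, and fibroblast-marker sub-clusters. For CPI against isotype it gave 3.25 for C3 (adjusted p = 5e-06) and -1.40 for C1qa (adjusted p = 0.00094). In the same fit C4b turned to -0.76 (adjusted p = 0.83) and Cfb to -0.0046 (adjusted p = 0.998).

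**Figure D3:**
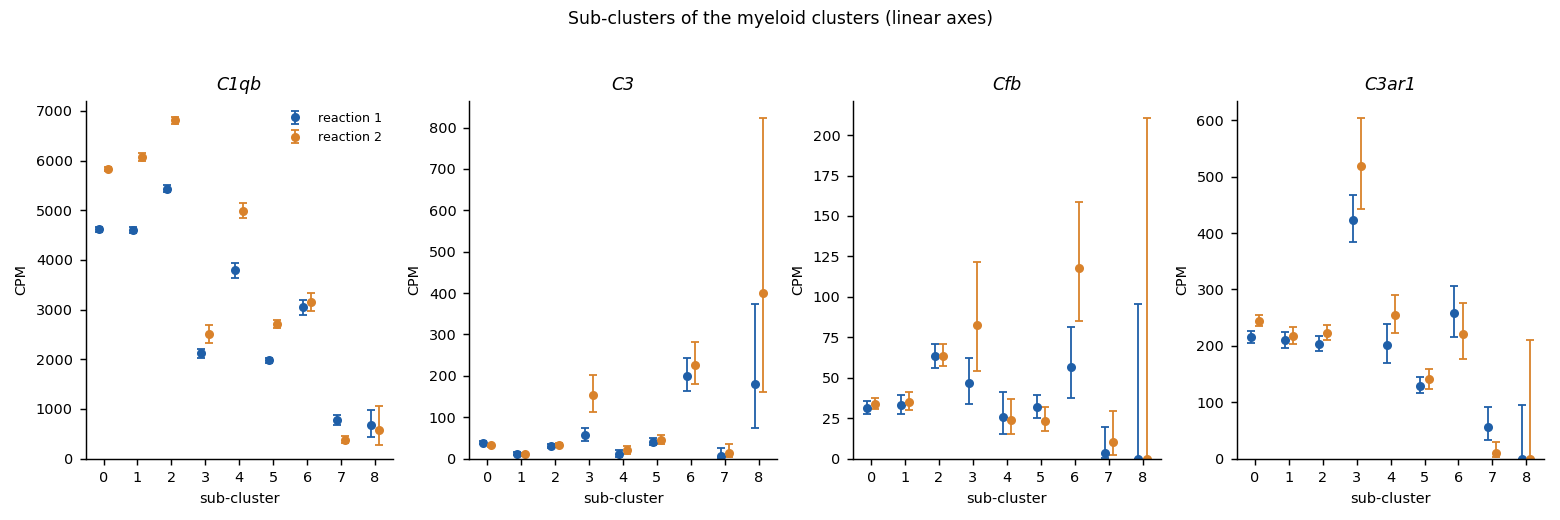
CPM of C1qb, C3, Cfb, and C3ar1 in the myeloid sub-clusters by number, with 1 point per reaction, linear axes from 0, and bars for the exact Poisson 95% interval. Numbers 0, 2, 3, and 4 are led by Tnfsf9, Cxcl9, Cadm1, and Hspb1, number 1 by Ccl12, number 5 carries fibroblast markers, number 6 is the CPI sub-cluster with C3 at 211 CPM, and numbers 7 and 8 are DC-like and neutrophil-like.

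ABT-317 given to isotype-treated mice was tested for its own effect. None of the 8 genes was called by edgeR, where 0% of the 9690 genes tested were called, with 321 genes at an unadjusted p under 0.05 and 7 genes called by DESeq2. C1qa was at 3575 and 4362 CPM and C3 at 33.2 and 20.2 CPM under isotype + ABT-317, values that overlapped those under isotype. The log2 fold change farthest from 0 among the 8 genes was 0.26 ± 0.40 for C4b, none of the 8 was at an unadjusted p under 0.05, and each adjusted p was 1.00.

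ABT-317 after CPI was then compared with CPI alone, the comparison in which JAK1 was inhibited once CPI had been given. C1qa was at 2912 and 4312 CPM under CPI + ABT-317, above both CPI values, and the log2 fold change was 1.23 ± 0.25 (adjusted p = 0.0095). C1qc was at 2861 and 3868 CPM, with a log2 fold change of 1.27 ± 0.23 (adjusted p = 0.0057). C3 was at 54.2 and 73.6 CPM, below both CPI values, and the log2 fold change was -1.76 ± 0.23 (adjusted p = 0.00084). These 3 of the 8 genes were called, where 9.85% of all genes tested were called. The makeup of the class differed between these groups as well, since the CPI sub-cluster held 70.3% and 73.7% of CPI and 1.13% and 1.28% of CPI + ABT-317 cells. The macrophage list was at 13130 and 15583 CPM under CPI and 8492 and 11422 CPM under CPI + ABT-317, the monocyte list at 556 and 679 against 203 and 238 CPM, and the T cell list at 60.9 and 77.4 against 21.1 and 24.5 CPM. The fibroblast list was at 1070 and 387 against 708 and 301 CPM, lower within each reaction with values that overlapped across reactions.

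C1qb was at 3996 and 5435 CPM under CPI + ABT-317, also above both CPI values, but its log2 fold change of 0.80 ± 0.25 did not pass (adjusted p = 0.067). With the reaction number as a block, it was 0.79 and passed (adjusted p = 2.33e-10), and it passed in 11 of the 16 alternatives, the block among them. C5ar1 passed with the block at 0.36 (adjusted p = 0.022) and was 0.39 ± 0.25 without it (adjusted p = 0.39). C5ar1 was at 259 and 348 CPM, and the 2 values under CPI, 218 and 248 CPM, were both lower. C4b was at 8.54 and 8.18 CPM with a log2 fold change of -1.17 ± 0.43 (adjusted p = 0.11). Cfb, at 70.3 and 74.2 CPM, lay between the 2 CPI values, and C3ar1, at 198 and 219 CPM, overlapped them, with log2 fold changes of -0.03 and -0.05. The thinned share of cells with a C3 UMI was 6.62% and 6.91%, against 17.5% and 17.1% under CPI. The C3 call held in all 16 alternatives, while C1qa was lost without CPI + ABT-317 reaction 2 (0.89, adjusted p = 0.071) and without CPI reaction 1 (1.11, adjusted p = 0.082), and C1qc without CPI reaction 1 (1.13, adjusted p = 0.058). Both were also lost with the hashtag leading by 1 log unit (0.88, adjusted p = 0.089, and 0.91, adjusted p = 0.053), so that C1qa was called in 13 and C1qc in 14 of the 16.

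CPI was also compared under ABT-317, as CPI + ABT-317 against isotype + ABT-317. None of the 8 genes was called by edgeR, where 0.991% of all genes were called. C3 (54.2 and 73.6 against 33.2 and 20.2 CPM) had a log2 fold change of 1.24 ± 0.28 (adjusted p = 0.070), and Cfb (70.3 and 74.2 against 38.4 and 30.8 CPM) had 1.06 ± 0.29 (adjusted p = 0.14), with unadjusted edgeR p-values of 0.00082 and 0.0033. DESeq2 called 1 of the 8, C3. With the reaction block, C3 at 1.21 (adjusted p = 0.00049) and Cfb at 1.04 (adjusted p = 0.0012) were called, and over the 16 alternatives, the block among them, C3 was called in 11 and Cfb in 9.

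The interaction term asks whether the CPI effect differed with ABT-317. It was -1.89 ± 0.36 for C3 (adjusted p = 0.017), 1 call of 8 where 2.71% of all genes tested were called. It was 1.27 ± 0.34 for C1qa (adjusted p = 0.075), 1.25 ± 0.32 for C1qc (adjusted p = 0.064), 0.86 for C1qb (adjusted p = 0.24), and -1.43 for C4b (adjusted p = 0.24). With the reaction block, C1qa (1.23, adjusted p = 9.07e-10), C1qb (0.86, adjusted p = 8.69e-08), C1qc (1.23, adjusted p = 1.73e-10), and C3 (-1.91, adjusted p = 2.41e-05) were called. Over 19 alternatives, the block among them, C1qa was called in 11, C1qc in 10, C1qb in 2, and C3 in 15. The C3 term was lost without CPI reaction 2 (-1.57, adjusted p = 0.076), CPI + ABT-317 reaction 1 (-1.58, adjusted p = 0.052), or isotype + ABT-317 reaction 1 (-1.45, adjusted p = 0.28), and when cells with a UMI of the 4 fibroblast genes were left out (-1.34, adjusted p = 0.178).

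**Figure D4:**
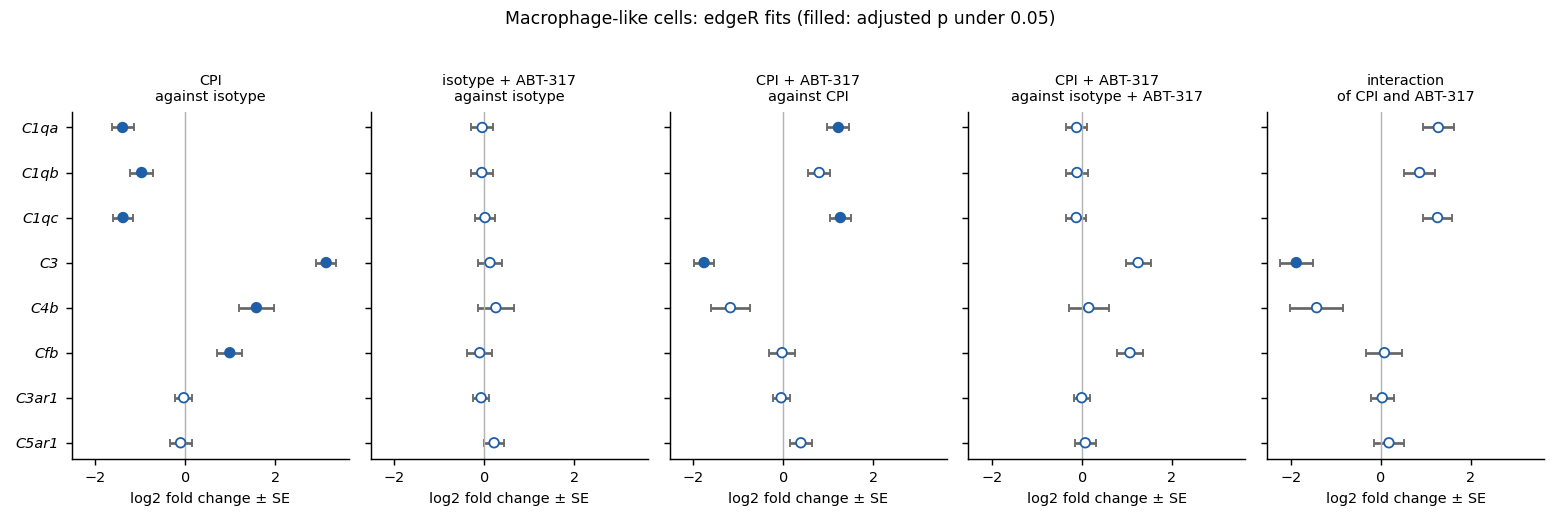
Log2 fold change with its SE for each complement gene in macrophage-like cells, 1 panel per comparison, with filled points for adjusted p under 0.05. C3 is at 3.13 for CPI against isotype and at -1.76 for CPI + ABT-317 against CPI, and C1qa is at -1.40 and 1.23.

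Complement genes beyond the 8 were few in macrophage-like cells. For CPI against isotype, where 16.8% of all genes were called, edgeR called neither of the 2 other classical and lectin genes tested nor the 1 other alternative and terminal pathway gene, and called 1 higher and 1 lower of the 5 other receptor genes. Of the integrin chains of complement receptors 3 and 4, Itgam was at 298 and 309 CPM under isotype and 219 and 212 CPM under CPI (-0.51 ± 0.16, adjusted p = 0.047), and Itgb2 at 143 and 152 against 207 and 252 CPM (0.62 ± 0.19, adjusted p = 0.0495). Itgam was higher again under CPI + ABT-317, at 302 and 351 CPM (0.60 ± 0.16, adjusted p = 0.036). The Itgam and Itgb2 calls for CPI against isotype were each lost without any 1 of the 4 sums compared (adjusted p = 0.079 to 0.198 and 0.061 to 0.36), and the Itgam call for CPI + ABT-317 against CPI was lost without CPI + ABT-317 reaction 2, CPI reaction 1, or CPI reaction 2 (adjusted p = 0.188, 0.151, and 0.075), with the hashtag leading by 1 log unit (0.073), at Leiden resolution 1.0 (0.20), with only the sums compared (0.064), and without the CPI sub-cluster (0.0999). The Itgam and Itgb2 calls for CPI against isotype were also lost with that hashtag rule (0.130 and 0.148), at Leiden resolution 1.0 (0.22 and 0.47), and without the CPI sub-cluster (0.115 and 0.205), and that of Itgb2 with DESeq2 (0.063), no filter on low counts (0.097), no UMI of the 4 fibroblast genes (0.106), and only the sums compared (0.068).

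Genes that interferon γ induces through JAK1 were counted beside them. Of 18 tested, 4 were higher and 3 lower for CPI against isotype (16.8% of all genes called) and 0 were called for isotype + ABT-317 against isotype (0% of all genes). For CPI + ABT-317 against CPI 10 were higher (9.85% of all genes called), and for CPI + ABT-317 against isotype + ABT-317 6 were higher (0.991% of all genes called).

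In fibroblast-like cells, CPI could be set against isotype only, since 13 isotype + ABT-317 and 26 CPI + ABT-317 cells in reaction 2 were too few for the other comparisons. All 8 genes were called, where 21.4% of 10644 genes tested were called. The isotype sums held 127 and 88 cells, of which 14 and 40 were left at a hashtag posterior of 0.9. The CPI sums held 836 and 511 cells, of which 439 and 308 were left. C3 was at 546 and 603 CPM under isotype and at 1552 and 1779 CPM under CPI, a log2 fold change of 1.57 ± 0.16 (adjusted p = 5.90e-05). C4b was at 277 and 316 against 702 and 790 CPM, a log2 fold change of 1.36 ± 0.17 (adjusted p = 0.00018). Cfb was at 129 and 136 against 240 and 290 CPM, a log2 fold change of 1.03 ± 0.18 (adjusted p = 0.0018). For these component genes both CPI values lay above both isotype values.

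C1q and the receptors went the other way in the fibroblast-like class. C1qa was at 641 and 982 CPM under isotype and at 94.6 and 54.5 CPM under CPI (log2 fold change -3.41 ± 0.26, adjusted p = 9.75e-06). C1qb was at -3.33 and C1qc at -3.31 on the same scale. C3ar1 was at 36.8 and 34.6 against 9.84 and 2.49 CPM (-2.40 ± 0.40, adjusted p = 0.0012), and C5ar1 at 43.1 and 62.3 against 6.00 and 4.27 CPM (-3.27 ± 0.30, adjusted p = 2.93e-05).

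The marker lists of this class moved with both sets. The macrophage list was at 2520 and 3525 CPM in isotype and 758 and 762 CPM in CPI fibroblast-like cells, and the fibroblast list at 24921 and 26624 against 70638 and 85244 CPM. Per 1000 fibroblast-list UMIs, C3 was at 21.9 and 22.7 under isotype and 22.0 and 20.9 under CPI, C4b at 11.1 and 11.9 against 9.93 and 9.27, and Cfb at 5.18 and 5.12 against 3.40 and 3.41. On that scale C3 overlapped between the groups, and C4b and Cfb were lower under CPI, so the direction of the component genes in this class depended on the scale. The same ratio under CPI + ABT-317 was 15.2 and 9.19 for C3, 6.18 and 5.49 for C4b, and 4.35 and 3.11 for Cfb, the second value of each from 26 cells. Under isotype + ABT-317 it was 23.8 and 20.7 for C3, 12.3 and 6.97 for C4b, and 4.77 and 4.25 for Cfb, the second value of each from 13 cells.

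Of the complement genes beyond the 8 in fibroblast-like cells, 4 higher of 4 classical and lectin genes tested, 1 lower of 2 alternative and terminal genes, 4 lower of 4 receptors, and 4 higher of 8 regulators were called, where 21.4% of all genes were called. C1s1 was at 188 and 228 CPM under isotype and 574 and 639 CPM under CPI, C1ra at 113 and 101 against 298 and 359 CPM, and Serping1 at 780 and 960 against 2022 and 2432 CPM, with log2 fold changes of 1.58, 1.65, and 1.39. The fibroblast list held 31834 and 26927 UMIs under isotype and 294330 and 239456 under CPI. C1s1 had 240 and 231 against 2391 and 1794 UMIs, and C1ra 144 and 102 against 1243 and 1008. Serping1 had 996 and 971 against 8426 and 6833. Relative to the fibroblast list, C1s1 and C1ra overlapped between the groups and Serping1 was lower under CPI, with no test. Itgam was lower, at -2.87. The calls of C4b and Cfb were lost when cells with 2500 genes or more were left out (0.52, adjusted p = 0.068, and 0.58, adjusted p = 0.094).

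**Figure D5:**
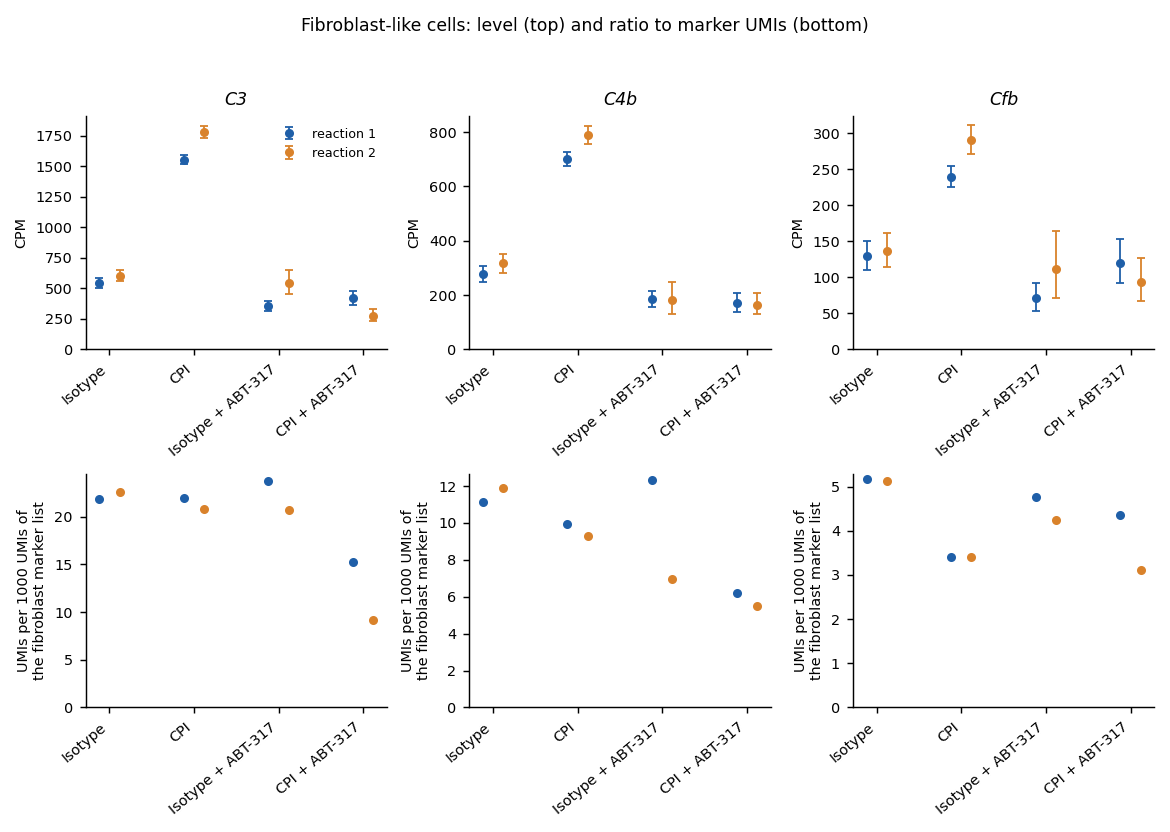
CPM of C3, C4b, and Cfb in fibroblast-like cells by treatment, with 1 point per reaction, and below each the same gene per 1000 UMIs of the fibroblast marker list. The axes are linear from 0, and bars on the CPM panels are exact Poisson 95% intervals. Under CPI, C3, C4b, and Cfb sit above the isotype values (C3 at 1552 and 1779 against 546 and 603 CPM), while per 1000 marker UMIs C3 is at 22.0 and 20.9 against 21.9 and 22.7.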

How the data were processed

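The authors deposited UMI counts per gene, antibody, and barcode for 2 MC38 tumor reactions, as written by Cell Ranger and without normalization. The matrix header names version 8.0.1, whereas the labels list 3.1.0 and GRCm38/mm10, and 60000 cells were loaded per reaction. Hashtags were read with the authors' key, which names a treatment for each hashtag and does not name mice, although the methods describe hashtags for both samples and treatments. The complement genes and all gene lists were chosen with earlier results of these data known.

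Barcodes needed at least 200 genes and under 10% mitochondrial UMIs. Log hashtag counts were modeled as a mixture of 2 normal distributions per hashtag (scikit-learn 1.9.0), and barcodes with exactly 1 hashtag present at a posterior of 0.5 were kept. In reactions 1 and 2, 7712 and 4872 barcodes had several hashtags and were left out as doublets, 7911 and 3534 had none, and doublets within a treatment remain because no doublet caller was run. The methods' limit of fewer than 2500 genes was an alternative only, since 54.9% and 58.5% of barcodes were at or above it. Cells were clustered with scanpy 1.11.5 (2000 variable genes without complement genes, 50 principal components, 15 neighbors, Leiden resolution 0.5, leidenalg 0.10.2). A class was named where at least 3 of its markers reached 1.5 times the level elsewhere and at least 2 were among the 10 leading genes. Myeloid clusters were clustered again with 30 components.

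Counts were summed per class, treatment, and reaction, with at least 30 cells per sum, and tested with edgeR 4.0.16 in R 4.3.3 (TMM, filterByExpr, quasi-likelihood test, treatment as the only term, Benjamini-Hochberg adjustment over all genes tested, threshold 0.05), after a check on simulated counts. Levels are UMIs of the gene per 1000000 gene UMIs of the sum (CPM). Poisson intervals, Clopper-Pearson intervals, and the limit of 3 counts at a count of 0 cover counting error only. Same-numbered sums come from the same droplet reaction, which the labels prepare as a batch, and their deviations from treatment means correlated at 0.184 to 0.536 over the 6 pairs of treatments, so the reaction number pairs the sums. The fit with the reaction as a block was an alternative. In fibroblast-like cells the planned fit of 4 treatments was replaced by CPI against isotype, because 1 sum of each ABT-317 group had too few cells, and the fits planned for monocyte-like, neutrophil-like, and epithelial tumor-like cells were not made for want of cells or of a named class.

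The other alternatives were DESeq2 1.42.0, no composition factor, no filter on low counts, only the sums compared, Leiden resolution 1.0, a hashtag leading by 1 log unit, fewer than 2500 genes, no thinning, and leaving out each sum or reaction. Alternatives chosen after seeing the data were a hashtag posterior of 0.9, leaving out cells with a UMI of 4 fibroblast genes, and leaving out sub-clusters. The alternative without the CPI sub-cluster also left out the DC-like, neutrophil-like, and fibroblast-marker sub-clusters. All 8 genes were tested in each comparison, and in some comparisons only part of them are given with values. Also named are other genes of the complement lists that are among the 10 of lowest p past the threshold, those 8 included. The 3 genes most like each of the 8 were taken from those at 50 CPM or more in a sum. No per-sample column was left out, and lymph node matrices were not used here. An item of the gene lists is not reported here.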

Additional observations from a re-analysis of the deposited data

Results flagged for a closer look

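The effect of CPI on C3 in macrophage-like cells differed between sums with and without ABT-317 by the interaction term, -1.89 ± 0.36 on the log2 scale (n = 2 sums per treatment, adjusted p = 0.017 by edgeR). CPI against isotype was 3.13, with CPI at 190 and 246 CPM, and CPI + ABT-317 against isotype + ABT-317 was 1.24, with CPI + ABT-317 at 54.2 and 73.6 CPM. The term was negative in all 19 alternatives and called in 15 of them. Groups of 2 sums were too small to test for outlying samples.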

How the results depend on the processing

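With the reaction number as a block, which pairs the sums, 5 of the 8 genes were called for CPI + ABT-317 against CPI (3 without it), 2 for CPI + ABT-317 against isotype + ABT-317 (0 without it), and 4 for the interaction (1 without it). The block changed no other call. Over all macrophage-like genes it called 2697 for CPI against isotype, 1845 for CPI + ABT-317 against CPI, 525 for CPI + ABT-317 against isotype + ABT-317, 1128 for the interaction, and 86 for isotype + ABT-317 against isotype, against 1631, 954, 96, 263, and 0.

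Of 747 log2 fold changes of the 8 genes under alternatives, 664 stayed on their side of the threshold, 55 gained a call, 25 lost it with the same sign, and 3 lost it and changed sign. Of the 664, 222 were called both ways with the same sign, and of those not called either way 362 kept and 80 changed their sign. For CPI against isotype, C4b turned to -0.69 at Leiden resolution 1.0 and -0.76 without the CPI sub-cluster, and Cfb to -0.0046 without the CPI sub-cluster. C1qb was lost with the hashtag leading by 1 log unit (-0.78, adjusted p = 0.074) and Cfb at Leiden resolution 1.0 (0.64, adjusted p = 0.33). For CPI + ABT-317 against CPI, that hashtag rule left 1 call. For CPI + ABT-317 against isotype + ABT-317, 1 of the 8 genes was called by DESeq2 and at a hashtag posterior of 0.9, and 2 at Leiden resolution 1.0, with fewer than 2500 genes, the leading hashtag, no UMI of 4 fibroblast genes, no filter on low counts, only the sums compared, and either set of sub-clusters left out. For the interaction, 2 were called at Leiden resolution 1.0 and with no UMI of 4 fibroblast genes, 3 by DESeq2, with fewer than 2500 genes, a posterior of 0.9, no composition factor, or without the DC-like, neutrophil-like, and fibroblast-marker sub-clusters, and 4 with no filter on low counts. Leaving out 1 sum gave 3 to 4 calls for CPI against isotype (6 with all), 1 to 4 for CPI + ABT-317 against CPI, 0 for CPI + ABT-317 against isotype + ABT-317, and 0 to 3 for the interaction. The causes were not tested.

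Over all genes, the calls for CPI against isotype were 490 at Leiden resolution 1.0 and 547 without the CPI sub-cluster, and for CPI + ABT-317 against CPI 141, 140, and, with the leading hashtag, 618. For CPI + ABT-317 against isotype + ABT-317 they ranged from 153 to 194 in 6 alternatives and were 257 with no filter on low counts. For the interaction they were 63 and 47, and 151 with the leading hashtag, 454 with fewer than 2500 genes, 526 at a posterior of 0.9, 639 with no filter on low counts, and 647 without the 3 other sub-clusters. For isotype + ABT-317 against isotype they were 33 with no filter on low counts and at most 7 in the alternatives other than the block and that one. With 1 sum left out, counts fell to as few as 860 for CPI against isotype (without isotype reaction 2), 441 for CPI + ABT-317 against CPI (without CPI reaction 2), 14 for CPI + ABT-317 against isotype + ABT-317, and 62 for the interaction (both without isotype + ABT-317 reaction 1). In fibroblast-like cells DESeq2 called 1219 genes and the limit of 2500 genes gave 921, against 2278. The level of C3 in fibroblast-like cells was a mean of 1220 CPM, 1939.8 CPM with fewer than 2500 genes and 1429 CPM at a posterior of 0.9, and 1137 to 1303 CPM with 1 reaction left out. The level of C1qb in macrophage-like cells was 5147 CPM (4484 to 5811), and the share of macrophage-like cells with a UMI of C1qb was 94.5%, or 97.8% without thinning. The fibroblast-like fit at a posterior of 0.9 was not run, since only 14 isotype cells were left in reaction 1. At that posterior, isotype macrophage-like cells of reaction 1 fell from 4207 to 1267. The 2 sums per treatment limit what could be called, and the part of the few CPI macrophage-like cells (306 and 217) was not tested. On simulated counts for CPI against isotype in macrophage-like cells, edgeR recovered 53 of 100 genes changed 2-fold. Of 100 genes changed 4-fold it recovered 86.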

Other observations

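CD88, the C5aR1 protein, was measured on the same cells by antibody. In macrophage-like cells it was at 132 and 133 per 10000 antibody UMIs under isotype, 125 and 127 under CPI, 131 and 128 under isotype + ABT-317, and 124 and 129 under CPI + ABT-317, with no test run. The C1q and C3 proteins were not measured by the antibodies used here.

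An unnamed cluster with a median of 23027.5 UMIs per barcode, 2966 of whose 4564 barcodes carried several hashtags, held 8.81% of C1qa, 9.46% of C1qb, and 9.55% of C1qc UMIs among cells with 1 hashtag.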
